A study of Mus musculus with 6 samples.

Results

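The 41 genes described here encode the machinery of autophagy and the lysosome, and they were read by symbol from the gene tables of 6 libraries. The tables list 55401 genes, each of the 41 symbols matched 1 row, and all 41 passed the filter on low counts that left 17159 genes for testing. They comprise 19 genes of the autophagy machinery, 3 transcription factors of the TFEB family, 5 proteins of the lysosomal membrane and 14 lysosomal hydrolases. The cells were NIH3T3, an established mouse embryonic fibroblast line, labelled wild type in both groups. In 3 libraries the cells had received the vehicle DMSO and in 3 they had received IPRN, a name the sample labels do not spell out, while the series title names angelicin. The series' text also speaks of hydrogen peroxide and TGF-β as stimuli for these cells. The labels give neither dose nor time, and they do not state which of the libraries received the stimuli or whether replicates were separate cultures, so p-values measure only the spread between these libraries.

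Autophagy encloses part of the cytoplasm in a double membrane, the autophagosome, which then fuses with the lysosome. A kinase complex around ULK1 starts the process, a lipid kinase complex with BECN1 and ATG14 marks the site, and linked conjugation reactions attach proteins of the ATG8 family to the growing membrane. The lysosome, an acid compartment bounded by heavily glycosylated membrane proteins such as LAMP1 and LAMP2, digests the delivered material with proteases, glycosidases and other hydrolases. TFEB, TFE3 and MITF are related transcription factors that bind E-box sequences, among them the CLEAR element found before many lysosomal genes, and their entry into the nucleus is regulated by phosphorylation, which transcript levels do not show.

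The E-box of these factors could be looked up in the promoters of 36 of the 41 genes, taken from RefSeq on GRCm38.p6 as the 250 bases before and 50 bases after each transcription start. The letters CACGTG, which read the same on both strands, were present in 12 of these 36 genes (33.33%), against 11.24% of 11059 tested genes with a promoter entry. The longer CLEAR core TCACGTGA, which contains CACGTG and also reads the same on both strands, was present in 5 of 36 (13.89%) against 2.09%, and the variant TCATGTG, searched on both strands, in 3 of 36 (8.33%) against 2.75%. CACGTG was found in 8 of 18 lysosomal genes, in 4 of 15 genes of the autophagy machinery and in 0 of the 3 TFEB-family genes. The 5 genes with the CLEAR core were Atg3, Ctsa, Ctsd, Gla and Mcoln1, and a window of 30 bases around the core is shown for each because Mcoln1 alone among them was called changed under IPRN. The core is in capitals, and each sequence runs 5′ to 3′ on the strand of the gene.
Mcoln1 (chr8:3500462-3500491, plus strand): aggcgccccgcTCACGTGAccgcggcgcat
Atg3 (chr16:45158746-45158775, plus strand): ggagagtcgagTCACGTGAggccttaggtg
Ctsa (chr2:164833743-164833772, plus strand): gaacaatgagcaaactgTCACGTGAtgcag
Ctsd (chr7:142387908-142387937, minus strand): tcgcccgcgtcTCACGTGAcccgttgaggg
Gla (chrX:134601182-134601211, minus strand): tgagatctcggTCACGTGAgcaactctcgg
The core of Mcoln1 began 46 bases before its RefSeq start. Those of Gla began 195 and 228 bases before its RefSeq start, and the nearer is shown. Ctsl, which was called lower, held the shorter CACGTG alone, 236 bases before its RefSeq start. RefSeq starts can lie inside the deposited gene spans, some of which are given below. The cores shown for Mcoln1, Ctsa and Ctsd and the CACGTG of Ctsl lay within those spans. Longer promoters, without bases of annotated exons, are shown for 3 genes, the pair of LAMP genes and the gene with the largest rise: Lamp1, with 4 copies of CACGTG in capitals between 61 and 15 bases before its start, Lamp2 and Man2b1, with none of the 3 motifs.
Lamp1 (chr8:13158911-13159160, plus strand): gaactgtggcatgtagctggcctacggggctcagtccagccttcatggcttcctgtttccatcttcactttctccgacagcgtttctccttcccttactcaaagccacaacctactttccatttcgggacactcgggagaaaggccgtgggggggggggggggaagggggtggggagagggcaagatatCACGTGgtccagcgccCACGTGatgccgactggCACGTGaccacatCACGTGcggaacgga
Lamp2 (chrX:38456461-38456710, minus strand): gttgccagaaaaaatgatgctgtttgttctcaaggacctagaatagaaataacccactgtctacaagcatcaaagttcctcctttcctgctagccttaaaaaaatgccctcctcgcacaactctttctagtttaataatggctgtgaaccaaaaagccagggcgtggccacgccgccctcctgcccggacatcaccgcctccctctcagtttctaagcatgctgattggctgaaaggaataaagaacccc
Man2b1 (chr8:85083019-85083268, plus strand): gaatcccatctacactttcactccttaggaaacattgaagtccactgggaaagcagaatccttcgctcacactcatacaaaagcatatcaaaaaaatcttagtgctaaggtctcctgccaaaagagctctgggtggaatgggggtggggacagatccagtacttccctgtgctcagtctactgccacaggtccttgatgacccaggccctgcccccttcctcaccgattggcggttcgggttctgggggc
A match of letters describes the sequence and does not show that a factor binds there.

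All 41 genes were expressed in these cells. The deposited FPKM, which is scaled to gene length, averaged from 0.76 for Tfeb to 236 for Cd63 over the 6 libraries. The median of the 41 genes was 11.8 FPKM, against 3.17 FPKM for all tested genes. The lysosomal proteases held the highest median of any role, at 72.1 FPKM, and the TFEB family the lowest, at 1.07 FPKM. The autophagy machinery had a median of 10.2 FPKM, with Atg14 lowest at 2.13 FPKM and Gabarap highest at 112 FPKM. In raw counts the genes ran from 183 for Mitf in IPRN 1 to 79711 for Cd63 in DMSO 3, out of 60320282 to 78629444 counts per library. Together they took between 0.533% and 0.578% of each library's counts.

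**Figure D1:**
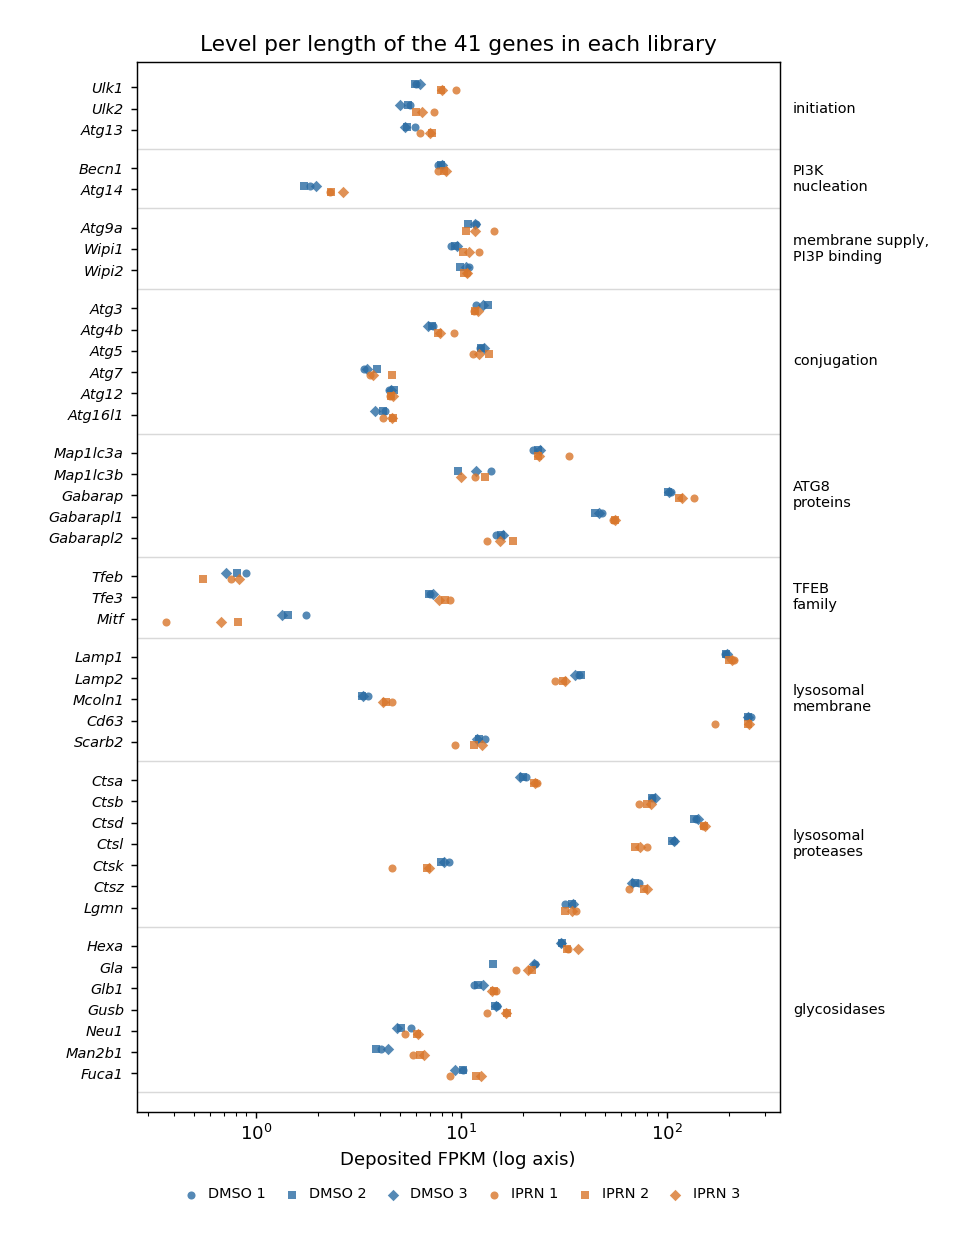
Deposited FPKM (log axis) of the 41 genes in each library, ordered by role, with DMSO libraries in blue and IPRN libraries in orange. Cd63, Lamp1, Ctsd and Gabarap have the highest means, from 112 to 236 FPKM, Tfeb and Mitf the lowest, at 0.76 and 1.07 FPKM, and for most genes the colours overlap or lie close together.

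The comparison of IPRN with DMSO showed calls of a rise among the autophagy genes, and calls in both directions among the lysosomal genes. Man2b1, Ulk1, Mcoln1 and Gabarapl1 rose, and Mitf, Ctsl and Lamp2 fell (edgeR quasi-likelihood test, Benjamini-Hochberg adjusted over 17159 genes, called at an adjusted p under 0.05). The other 34 genes were not called. A gene was called in 7 of 41 cases, against 5.47% of all tested genes. Calls of a rise were made for 4 of 41 against 2.46%, and calls of a fall for 3 of 41 against 3.01%. With testing limited to genes with a mean of at least 50 counts, the same 7 of 41 were called, against 8.66% of the genes tested. Mitf alone changed more than 2-fold, a size reached in either direction by 6.3% of all tested genes.

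The values of the groups overlapped for 18 of the 41 genes. All 3 IPRN libraries lay above all 3 DMSO libraries for 17 genes (14.9% of all tested genes did so) and below them for 6 genes (14.7% of all tested genes). The median log2 fold change of IPRN over DMSO was 0.10 over the 41 genes and 0.00156 over all tested genes. It was above 0 for 28 of the 41 genes, and for 50.18% of all tested genes. Other scalings gave 28 or 29 such genes, and an offset for GC content 26. By role, the median log2 fold change was 0.14 in the autophagy machinery, 0.10 in the hydrolases, -0.15 in the lysosomal membrane proteins and -0.18 in the TFEB family.

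**Figure D2:**
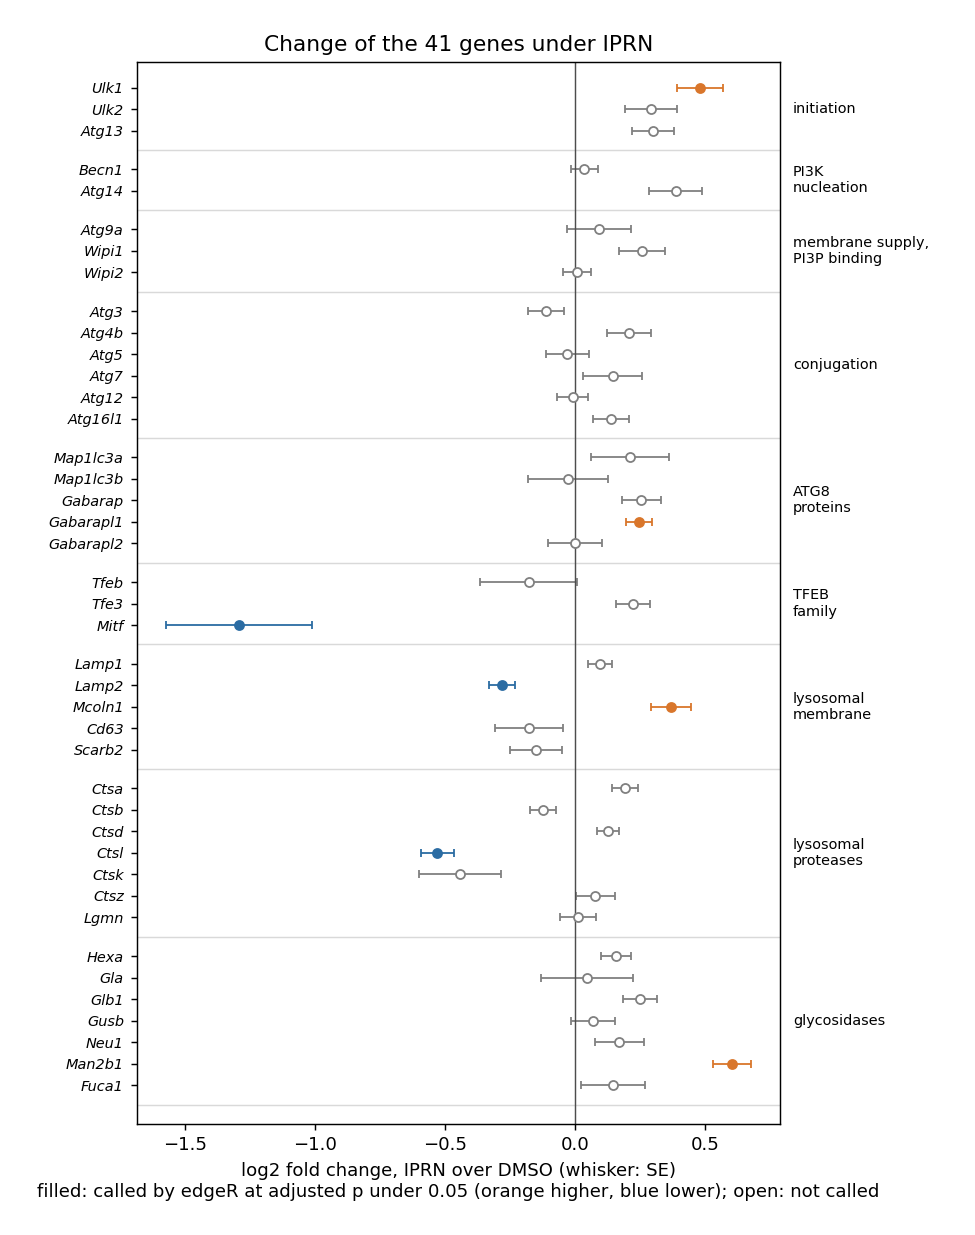
Log2 fold change of IPRN over DMSO with its SE for the 41 genes by role, with filled points for genes called by edgeR. Of the 41 genes 28 lie to the right of 0, and Mitf stands alone below -1.

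In the autophagy machinery 2 of 19 genes rose, 0 fell and 17 were not called. The IPRN libraries lay above all DMSO libraries for 9 of the 19 (14.9% of all tested genes) and below them for 0 (14.7% of all tested genes). In the listings that follow, values are TMM-normalised CPM, which is scaled to library size, in the order DMSO 1, 2, 3 and then IPRN 1, 2, 3, and folds and differences are IPRN over DMSO. With any 1 library other than IPRN 1 left out, edgeR called 0.739% to 1.46% of all tested genes, against 5.86% without IPRN 1. Calls lost in those fits were thus not particular to these genes. Counts at an unadjusted p under 0.05 are given without the share of all tested genes at that threshold.

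The initiation complex held the first of the rises called in the autophagy machinery. Ulk1, the kinase that starts autophagosome formation (ENSMUSG00000029512, chromosome 5 from 110784488 to 110810097, minus strand, GRCm38), stood at 43.5, 43.0 and 45.4 CPM and then at 69.3, 57.2 and 57.3 CPM. The groups were well apart, with IPRN 1 above the other two treated libraries. The log2 fold change of Ulk1 was 0.48 ± 0.09 (SE, n = 3 per group), a 1.39-fold rise with an adjusted p of 0.0309 in edgeR. Without IPRN 1 its log2 fold change was 0.38 (adjusted p = 0.0209), and with any other library left out the call was lost (adjusted p up to 0.133). Ulk2, a second kinase of this kind, and Atg13, a regulatory subunit, had log2 fold changes of 0.29 and 0.30 and were not called (adjusted p = 0.145 and 0.0843). For all 3 initiation genes every IPRN library lay above every DMSO library, against 14.9% of all tested genes. DESeq2 called Atg13 as well.

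Of the nucleation and membrane supply genes none was called by edgeR or DESeq2, and 2 of the 5 (Atg14 and Wipi1) had an unadjusted p under 0.05. Becn1, the scaffold of the lipid kinase complex and its better expressed member at 8.0 FPKM, measured 60.6, 62.3 and 63.7 CPM and then 61.8, 64.3 and 65.0 CPM. These groups overlapped, and the log2 fold change was 0.03 ± 0.05 (adjusted p = 0.775 in edgeR). Atg14, which directs that complex to autophagy, measured 8.87, 8.27 and 9.52 CPM and then 11.3, 11.04 and 12.5 CPM. The groups of Atg14 did not overlap, yet its log2 fold change of 0.39 ± 0.10 was not called (adjusted p = 0.0810). Atg9a, a membrane protein that delivers lipid vesicles, was the highest of its role at 11.7 FPKM and measured 75.2, 68.8 and 75.0 CPM and then 93.4, 66.9 and 73.2 CPM. Only IPRN 1 stood above the DMSO libraries, and the log2 fold change was 0.09 ± 0.12 (adjusted p = 0.742). Reads of Atg9a are uncertain, since models that overlap its exons held 26.7% as many counts. Wipi1 and Wipi2, which bind the lipid made by the kinase complex, had log2 fold changes of 0.26 and 0.01.

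The 6 conjugation genes also held no call in edgeR or DESeq2, and Atg4b alone had an unadjusted p under 0.05. Their log2 fold changes ran from -0.11 for Atg3, the enzyme that transfers ATG8 proteins to lipid, to 0.21 for Atg4b, the protease that primes them. Atg5, part of the complex that directs this transfer and the highest of the role at 12.5 FPKM, measured 32.2, 32.7 and 33.9 CPM and then 30.2, 35.4 and 31.2 CPM. The DMSO values lay inside the range of the IPRN values, and the log2 fold change was -0.03 ± 0.08 (adjusted p = 0.891). Atg7 (0.14), which activates the conjugated proteins, Atg12 (-0.01) and Atg16l1 (0.14) lay within the same range of log2 fold changes.

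Among the 5 ATG8 genes, whose products coat the autophagosome and recruit cargo, Gabarapl1 rose and the other 4 were not called. Gabarapl1 (ENSMUSG00000030161, chromosome 6 from 129533160 to 129542346, plus strand) measured 108.8, 100.3 and 105.4 CPM and then 124.4, 124.6 and 123.8 CPM. The 3 IPRN libraries lay close together and all above the DMSO libraries. Its log2 fold change was 0.25 ± 0.05, a 1.19-fold rise (adjusted p = 0.0373 in edgeR), and the call held without IPRN 1 and was lost without any other library (adjusted p up to 0.142).

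Gabarap, the most abundant ATG8 transcript per length with 50.9% to 54.4% of their summed FPKM in each library, measured 214, 207 and 211 CPM and then 281, 233 and 239 CPM. Its log2 fold change of 0.25 ± 0.08 was as large as that of Gabarapl1 but its IPRN values were spread more widely, and the adjusted p was 0.105 in edgeR, while DESeq2 called it. Map1lc3a (0.21), Map1lc3b (-0.03) and Gabarapl2 (-0.001) overlapped between groups.

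Map1lc3b, which encodes the autophagosome marker LC3B, measured 116.7, 80.4 and 98.6 CPM and then 99.0, 108.8 and 82.1 CPM. Its libraries were as different within a group as between groups (log2 fold change -0.03 ± 0.15, adjusted p = 0.950). Its counts are uncertain, since a pseudogene that matches 99.64% of 282 aligned bases held 9239 counts against 41054 for Map1lc3b, and Zcchc14, on the opposite strand, overlaps it with 43096 counts. Gabarapl2 measured 38.4, 40.2 and 41.4 CPM and then 35.0, 45.7 and 39.1 CPM, with its highest and lowest values both under IPRN (log2 fold change -0.001 ± 0.10, adjusted p = 0.997). A pseudogene copy of Gabarapl2 held 138 counts, against 16900 for the gene.

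**Figure D3:**
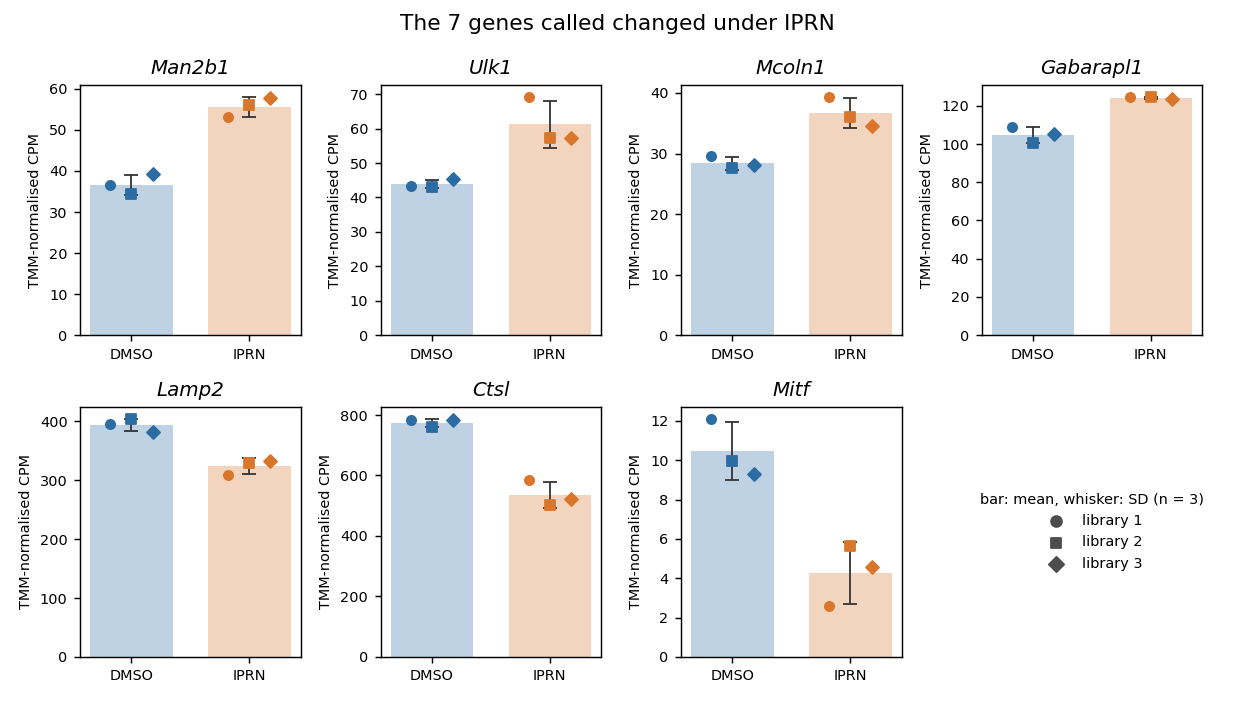
Normalised CPM of the 7 called genes in each library, with bars for the group mean and whiskers for the SD over 3 libraries. The groups do not overlap in any panel, and IPRN 1 is the treated library farthest from DMSO for Ulk1, Mcoln1, Lamp2 and Mitf.

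In the TFEB family, Mitf fell, and Tfeb and Tfe3 were not called. Mitf, best known for directing melanocyte and osteoclast genes (ENSMUSG00000035158, chromosome 6 from 97807052 to 98018707, plus strand, a span that differs from GENCODE M21), measured 12.1, 9.95 and 9.31 CPM and then 2.57, 5.65 and 4.60 CPM. Each IPRN value lay below each DMSO value, and IPRN 1 was the lowest. The mean was 10.5 ± 1.47 CPM in DMSO and 4.27 ± 1.57 CPM in IPRN (SD, n = 3), a log2 fold change of -1.29 ± 0.28 or a level 2.45-fold higher in DMSO (adjusted p = 0.0480 in edgeR). Without IPRN 1 the log2 fold change was -1.03 (adjusted p = 0.0302), and without any other library the call was lost (adjusted p up to 0.161). The Mitf call was also lost on library totals without TMM (log2 fold change -1.28, adjusted p = 0.0522) and without the filter on low counts (-1.29, adjusted p = 0.0631).

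Tfe3 was the most abundant family member per length, at 7.68 FPKM against 0.76 FPKM for Tfeb and 1.07 FPKM for Mitf. It measured 72.8, 71.7 and 75.0 CPM and then 91.9, 85.3 and 79.0 CPM. Every IPRN library lay above every DMSO library, but the log2 fold change of 0.22 ± 0.07 was not called (adjusted p = 0.106). Tfeb measured 5.71, 5.14 and 4.54 CPM and then 4.92, 3.50 and 5.17 CPM, overlapping values with a log2 fold change of -0.18 ± 0.19 (adjusted p = 0.659). Of the family's summed FPKM, Mitf made up 18.1%, 15.6% and 14.4% in the DMSO libraries, in number order, against 3.69%, 8.45% and 7.26% under IPRN, and Tfe3 made up 72.7% to 77.9% in DMSO and 83.9% to 88.6% in IPRN. Summed over 5 melanocyte markers, no library exceeded 0.372 CPM, and over 6 osteoclast markers none exceeded 2.48 CPM.

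Of the 5 lysosomal membrane genes Mcoln1 rose, Lamp2 fell and 3 were not called. Lamp2, which together with LAMP1 lines the lysosomal membrane (ENSMUSG00000016534, chromosome X from 38401357 to 38456454, minus strand), measured 396, 404 and 382 CPM and then 309, 329.7 and 333 CPM. Each IPRN value lay well below the lowest DMSO value. The log2 fold change was -0.28 ± 0.05, a level 1.22-fold higher in DMSO (adjusted p = 0.0284 in edgeR). Left-out libraries other than IPRN 1 ended the call (adjusted p up to 0.129), and without IPRN 1 the log2 fold change was -0.25 (adjusted p = 0.0226). Lamp1 measured 567, 574 and 587 CPM and then 644, 595 and 608 CPM. All IPRN values of Lamp1 lay above all DMSO values, with a log2 fold change of 0.10 ± 0.05 that was not called (adjusted p = 0.301).

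The ratio of Lamp1 to Lamp2 in FPKM was 5.12, 5.08 and 5.48 in the vehicle libraries, in number order, and 7.44, 6.44 and 6.52 after treatment. The ratio did not overlap between groups, and with 3 libraries against 3 an exact two-sided permutation test cannot give a p below 0.1. Its level depends on the gene lengths behind the FPKM values, which were not checked. In CPM, which takes no account of length, the DMSO libraries held 567, 574 and 587 for Lamp1 and 396, 404 and 382 for Lamp2.

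Mcoln1, a calcium channel of the lysosome (ENSMUSG00000004567, chromosome 8 from 3500457 to 3515232, plus strand), measured 29.6, 27.5 and 28.1 CPM and then 39.4, 36.1 and 34.6 CPM. The groups were apart, and the log2 fold change was 0.37 ± 0.08, a 1.29-fold rise (adjusted p = 0.0435 in edgeR). This call was lost whichever library was left out (adjusted p from 0.0617 to 0.163), while the log2 fold change stayed between 0.31 and 0.40. A noncoding gene similar to part of Mcoln1 held 37 counts, against 13715. Cd63, a tetraspanin and the most abundant of the 41 transcripts per length, measured 1047, 1014 and 1016 CPM and then 711, 1002 and 1008 CPM. IPRN 1 was far below the other 5 libraries, which lay close together, and the log2 fold change of -0.18 ± 0.13 (adjusted p = 0.502) was -0.03 without IPRN 1. Scarb2, the receptor that carries glucocerebrosidase to the lysosome, showed the same library lowest at 66.5 CPM, against 80.4 to 90.7 CPM in the other 5, and its log2 fold change of -0.15 was -0.05 without IPRN 1.

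Of the 7 lysosomal proteases Ctsl fell, 0 rose and 6 were not called. Ctsl, cathepsin L, a cysteine protease that is also secreted by fibroblasts (ENSMUSG00000021477, chromosome 13 from 64359337 to 64370890, minus strand), measured 782, 759 and 783 CPM and then 585, 502 and 523 CPM. The groups were far apart, and here IPRN 1 was the treated library closest to DMSO. The mean was 775 ± 13.6 CPM in DMSO and 537 ± 43.4 CPM in IPRN (SD, n = 3), a log2 fold change of -0.53 ± 0.06 or a level 1.44-fold higher in DMSO (adjusted p = 0.00943 in edgeR). The call held without any 1 IPRN library and was lost without any 1 DMSO library (adjusted p up to 0.0569).

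Ctsl supplied between 24.95% and 25.02% of the summed FPKM of 6 cathepsins in the DMSO libraries, and 20.1%, 17.2% and 17.6% in IPRN 1, 2 and 3. By FPKM it was the second cathepsin after Ctsd in all DMSO libraries and in IPRN 1, and the fourth after Ctsd, Ctsb and Ctsz in IPRN 2 and 3. This share and rank depend on the gene lengths behind the FPKM values, which were not checked. In CPM, which takes no account of length, Ctsl was the highest of these cathepsins in all DMSO libraries and in IPRN 1. Ctsb was the highest in IPRN 2 and 3, at 533 and 552 CPM against 502 and 523 CPM for Ctsl.

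Ctsd, an aspartic protease and the highest of the role at 144.9 FPKM, measured 364, 352 and 371 CPM and then 399, 393 and 394 CPM, which did not overlap. Its log2 fold change was 0.13 ± 0.04 (adjusted p = 0.143), and -0.005 with an offset for GC content. Ctsa, a carboxypeptidase that also protects other lysosomal enzymes, measured 108.5, 104.3 and 101.2 CPM and then 124.0, 117.2 and 117.2 CPM, with a log2 fold change of 0.19 ± 0.05 (adjusted p = 0.0810). Neither gene was called, although each had all IPRN libraries above all DMSO libraries.

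Of the other cysteine cathepsins, 2 lay lower in every IPRN library without a call. These were Ctsb, with a log2 fold change of -0.12 (adjusted p = 0.220) and Ctsk, the collagen-degrading cathepsin K, with one of -0.44 (adjusted p = 0.159). Ctsk measured 14.6, 13.3 and 13.8 CPM and then 7.88, 11.4 and 11.5 CPM, and without IPRN 1 its log2 fold change was -0.28. Ctsz (0.08) and Lgmn (0.01) overlapped. Gene models on the opposite strand that overlap Ctsb and Ctsz held 20.1% and 41% as many counts as these genes, so their values are uncertain.

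All 7 glycosidases, which remove sugars from glycolipids and glycoproteins, had a log2 fold change above 0 under each scaling, though Gla did not without DMSO 2 or IPRN 2, and Man2b1 was the only one called. Man2b1, lysosomal alpha-mannosidase (ENSMUSG00000005142, chromosome 8 from 85083270 to 85098282, plus strand), measured 36.5, 34.3 and 39.2 CPM and then 53.1, 56.1 and 57.8 CPM. The groups were clearly apart and IPRN 1 was the lowest of its group. The mean rose from 36.7 ± 2.46 to 55.7 ± 2.40 CPM (SD, n = 3), a log2 fold change of 0.60 ± 0.07 or 1.52-fold (adjusted p = 0.00936 in edgeR). The call was lost without DMSO 1 or DMSO 2 (adjusted p up to 0.0569) and held in the other 4 fits with 1 library left out.

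Hexa, a subunit of beta-hexosaminidase and the highest glycosidase at 32.4 FPKM, measured 68.1, 68.4 and 67.8 CPM and then 74.9, 72.1 and 80.8 CPM. Its IPRN values were all above DMSO, with a log2 fold change of 0.16 ± 0.06 (adjusted p = 0.171). Glb1, beta-galactosidase, had the smallest unadjusted p among the genes not called and measured 38.6, 40.4 and 42.5 CPM and then 49.97, 48.2 and 46.5 CPM. Its log2 fold change was 0.25 ± 0.07 (adjusted p = 0.0775 in edgeR), DESeq2 called it, and an overlapping gene on the same strand, Tmppe, held 20.2% as many counts. Gla (0.04), Gusb (0.07), Neu1 (0.17) and Fuca1 (0.15) overlapped between groups. Gla was low in DMSO 2, at 51.9 CPM against 67.8 to 82.6 CPM elsewhere.

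IPRN 1 lay apart from the other treated libraries for many of these genes. It was the library farthest from the other two of its group for 29 of the 41 genes (70.7%), against 44.2% of all tested genes, while no DMSO library was farthest for more than 15 of the 41. The median SD of log2 CPM was 0.06 in DMSO and 0.11 in IPRN over the 41 genes, and 0.12 and 0.15 over all tested genes. With IPRN 1 left out 3 genes were called higher and 3 lower, the same genes except Mcoln1.

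**Figure D4:**
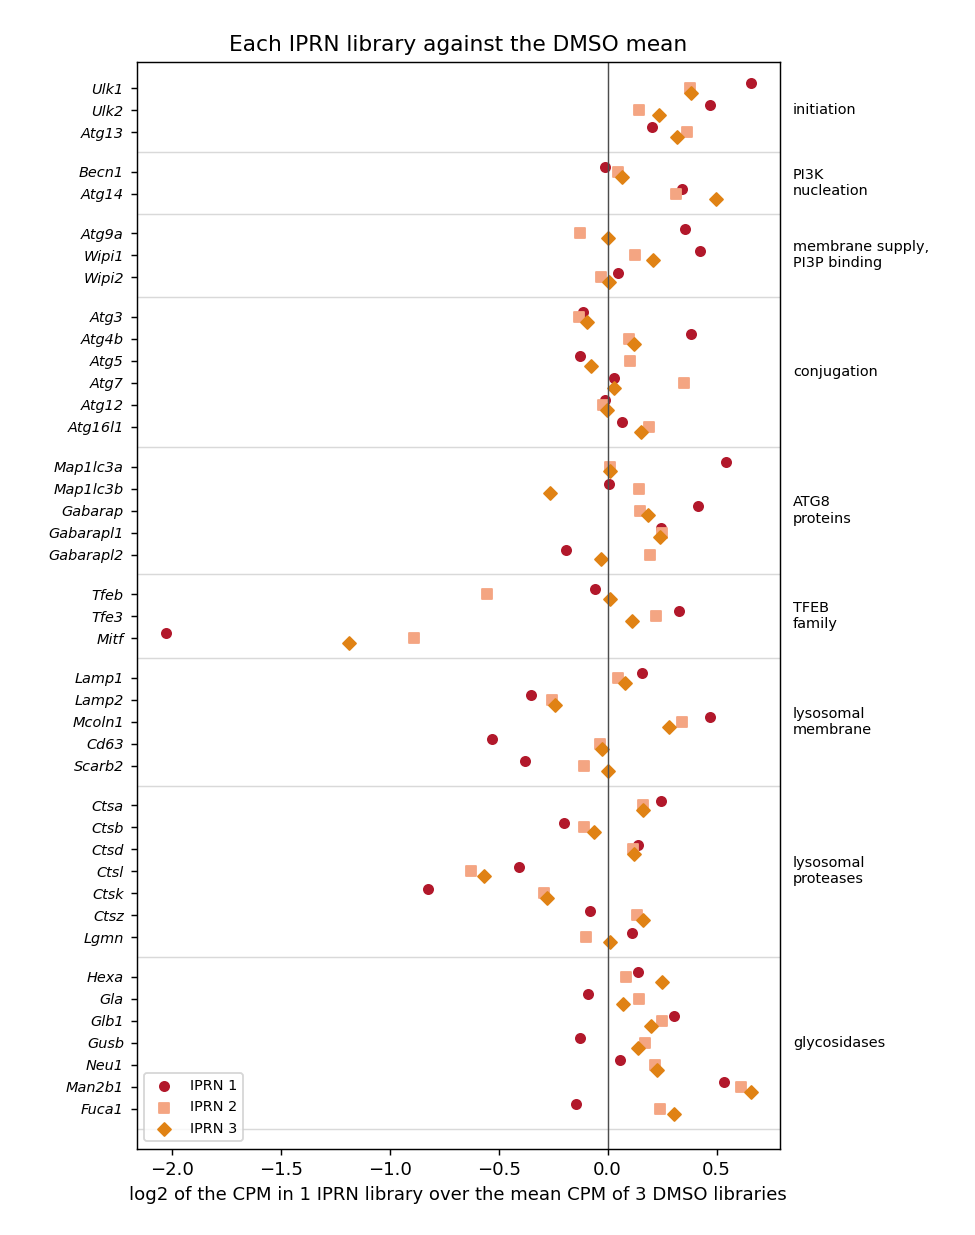
Log2 of the CPM in each IPRN library over the mean CPM of the 3 DMSO libraries, by gene and role. IPRN 1 lies away from the other treated libraries for 29 of the 41 genes, on the right for Gabarap and Map1lc3a and on the left for Cd63, Ctsk and Mitf.

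The direction of change went along with the GC content of the transcripts. The 4 genes called higher had longest transcripts of 50.4% to 58.0% GC and the 3 called lower of 38.7% to 44.3% GC, against a median of 49.4% over 17141 tested genes. Across all tested genes in 5 groups of about equal size by GC content, the median log2 fold change ran from -0.11 in the lowest to 0.16 in the highest group, and the share called higher from 0.204% to 7.35%. Over the 41 genes Pearson's r between GC content and log2 fold change was 0.40 and Spearman's rho 0.39, across genes of the same libraries that are not independent, and r was 0.16 over all tested genes. An offset for GC content in each library was chosen after seeing the data. With it 2.43% of all tested genes were called, against 5.47% without it. Of the 7 called genes, Man2b1 (log2 fold change 0.51, adjusted p = 0.0218) and Ctsl (-0.46, adjusted p = 0.0193) kept their call. The other 5 kept their direction with adjusted p from 0.0716 to 0.128, at log2 fold changes of 0.32 for Ulk1, 0.18 for Gabarapl1, 0.35 for Mcoln1, -1.21 for Mitf and -0.18 for Lamp2.

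**Figure D5:**
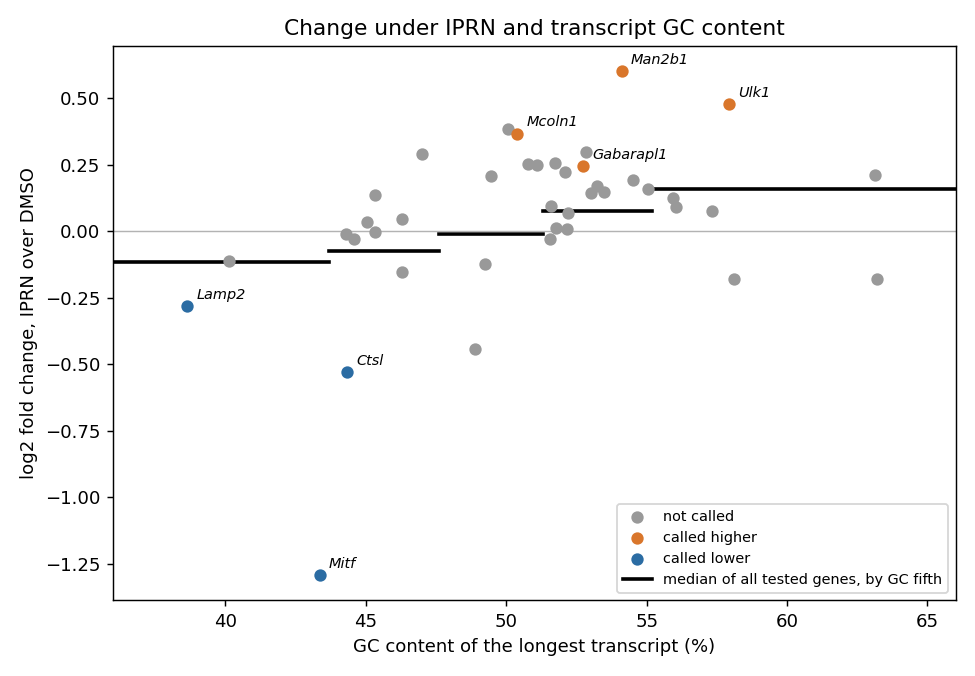
Log2 fold change of IPRN over DMSO against the GC content of the longest transcript for the 41 genes, with black lines for the median of all tested genes in each of 5 groups by GC content. The 4 genes called higher lie above 50% GC and the 3 called lower below 45% GC, while the black lines climb from -0.11 to 0.16.

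The rest of the pathway was read from 8 lists drawn up from textbook knowledge, with 137 genes, of which 136 were tested. Of these 6 rose, 2 fell and 128 were not called, and the median log2 fold change of the 136 was 0.08. With 8 of 136 called against 5.47% of all tested genes, the share was near the background. Among 20 further autophagy factors, Atg2a, a lipid transfer protein, rose from 40.8 ± 2.17 to 51.8 ± 3.30 CPM (log2 fold change 0.34, adjusted p = 0.0466 in edgeR), and Tmem41b, a lipid scramblase of the endoplasmic reticulum, fell from 59.1 ± 1.37 to 40.6 ± 4.75 CPM (log2 fold change -0.54, adjusted p = 0.0245). In both genes the groups did not overlap. None of 12 autophagy receptors was called by edgeR, 2 had an unadjusted p under 0.05, and DESeq2 called 1.

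Lamtor2, a subunit of the complex that anchors mTORC1 to the lysosome, was the 1 called gene of 20 in its list and rose from 26.1 ± 1.22 to 33.3 ± 1.01 CPM (log2 fold change 0.35, adjusted p = 0.0407). Of 17 subunits of the V-ATPase, the proton pump that acidifies lysosomes, Atp6v1a fell from 120.8 ± 1.26 to 100.8 ± 5.59 CPM (log2 fold change -0.26, adjusted p = 0.0433) and 16 were not called. Gaa, lysosomal alpha-glucosidase, was called among 29 further hydrolases and rose from 128.1 ± 4.95 to 154.0 ± 6.56 CPM (log2 fold change 0.27, adjusted p = 0.0402).

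Clcn7, a chloride and proton exchanger, rose from 46.2 ± 1.08 to 60.0 ± 3.06 CPM (log2 fold change 0.38, adjusted p = 0.0225) as the 1 called gene of 14 membrane and transport proteins. Gga1, an adaptor that sorts enzymes at the Golgi (1 of 11 sorting genes called), had a log2 fold change of 0.29 (adjusted p = 0.0481), and Plekhm1, an adaptor for fusion with the lysosome (1 of 13 fusion genes called), one of 0.35 (adjusted p = 0.0474). All 8 called genes had groups that did not overlap, and none reached 2-fold. Leaving out any 1 library other than IPRN 1 left 0 or 1 of the 136 genes called higher and 0 or 1 lower, and with IPRN 1 left out 6 and 2 were called, not all of them the same genes. Lamtor2, Clcn7, Tmem41b and Atp6v1a were called without IPRN 1, while Atg2a, Gaa, Gga1 and Plekhm1 lost their call whichever library was left out (adjusted p from 0.0562 to 0.182).

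Markers of fibroblasts were high in every library, with 12 of 12 detected and a sum of 25127 to 26192 CPM in DMSO and 27573 to 30913 CPM in IPRN. The 12 markers of macrophages, cells rich in lysosomes, summed to 11.9 to 25.9 CPM in DMSO and to 22.7 to 155.1 CPM in IPRN, the highest in IPRN 3, where Lyz2 alone reached 99.3 CPM. In that library Ctss, a cathepsin of immune cells, stood at 7.48 CPM against 0.133 to 1.42 CPM in the other 5, and the ferritin receptor Ncoa4 at 75.4 CPM against 21.6 to 31.9 CPM. Both were singled out after their values were seen, and neither was called by edgeR. The 16 hepatocyte markers summed to 4.34 CPM in DMSO 1 and 7.52 CPM in IPRN 3, where 12 and 11 of them were at 0. The remaining 4 libraries held 35.5 to 105.9 CPM, the highest in IPRN 1. Without DMSO 1 and IPRN 3, edgeR called 0 of the 41 genes (12 had an unadjusted p under 0.05) and 0.3% of all tested genes. A term for the libraries with these transcripts left Man2b1 and Ctsl called, when 2.5% of all tested genes were called. The 7 called genes kept their direction in both fits, and the median log2 fold change of the 41 genes was 0.13 and 0.10. The source of the macrophage and hepatocyte transcripts and their part in the results were not tested, and these markers do not show that such cells were present. In a culture measured in bulk, fewer cells of a type and less RNA per cell cannot be told apart.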

How the data were processed

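Messenger RNA was measured in 3 DMSO and 3 IPRN libraries of NIH3T3 cells, grouped by their titles. The deposited table of each library gives, per the file headers, a count and an FPKM value for each Ensembl gene. Counts were whole numbers without normalization, and the authors scaled the FPKM values to gene length and library size. The submitters' processing notes name cutadapt 1.9. For aligner, counting tool and genome build: not given in the sources used here. The library protocol in the labels selects polyadenylated RNA and has no step that marks the strand, so overlapping genes cannot be separated. Of 55141 gene IDs shared with GENCODE M21, 94.23% had the identical position on GRCm38.

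The test of all genes used edgeR 4.0.16 under R 4.3.3 (TMM, default filter with a minimum count of 10, quasi-likelihood test of IPRN against DMSO with no covariate, two-sided, Benjamini-Hochberg over 17159 genes, called at an adjusted p under 0.05), and every adjusted p is from this test unless DESeq2 1.42.0 is named. The script was tested first on simulated counts of 17159 genes, with 50 genes changed at each of 4 sizes. It called 0% of the 1.3-fold, 24% of the 1.5-fold, 64% of the 2-fold and 86% of the 4-fold changes. The simulation changed fewer genes than the 938 called in the data. In the data, genes were also called at smaller folds than 1.3. These were Gabarapl1 at 1.19-fold, Mcoln1 at 1.29-fold and Lamp2, which was 1.22-fold higher in DMSO. The simulated shares therefore do not give the recovery for the genes described here. A gene not called may still have changed. FPKM was used without a test, for levels between genes and for ratios, shares and ranks among genes within each library. These depend on the gene lengths behind the FPKM values, which were not checked against transcripts. Totals ran from 60320282 to 78629444 counts, replicate pairs differed by far more than counting noise (their chi-square over its degrees of freedom was 34.0 to 97.6), and PCR copies were not told apart.

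The genes and lists were chosen with earlier results of these data known. Full values are given for each called gene, the 3 TFEB-family genes, the gene of each role with the highest mean FPKM, the 3 genes not called with the smallest unadjusted p and genes with an expressed copy, and for up to 3 called genes of each further list. Alternatives were another tool, other scalings and filters, a replicate block, left-out libraries, a term for liver transcripts and an offset for GC content.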

Additional observations from a re-analysis of the deposited data

How the results depend on the processing

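With 1 library left out at a time, the 41 genes gave 0 to 3 calls of a rise and 0 to 3 of a fall, and the other pathway lists 0 to 6 and 0 to 2. The counts were 0 and 0 without DMSO 1 or without DMSO 2 (14 and 15 of the 41 genes at an unadjusted p under 0.05), 1 and 0 without DMSO 3, 3 and 3 without IPRN 1, and 1 and 1 without IPRN 2 or without IPRN 3. The share of all tested genes at that unadjusted threshold is not given, for these fits or those below, so such counts have no background to be set against. Replicate numbers did not pair the libraries (r of same-numbered deviations -0.08, 0.02 and -0.06). The largest r between a DMSO and an IPRN library was 0.12, for DMSO 1 and IPRN 3. A fit with a replicate block called 0 of the 41 genes higher and 0 lower, and 0 and 0 genes of the other lists, in edgeR, where 17 and 36 had an unadjusted p under 0.05. That fit called 0.6% of all tested genes. DESeq2 called 7 higher and 3 lower, and 18 and 5 in the other lists, when it called 15% of all genes. Without a filter on low counts 2 and 2 were called (Ulk1, Man2b1, Lamp2 and Ctsl), and 1 and 1 in the other lists. That setting called 2.29% of all tested genes. A mean of at least 50 counts gave 11 higher in the other lists, when 8.66% of all tested genes were called. Library totals without TMM gave 1 lower in the other lists and 2 lower among the 41, without Mitf, with 5.47% of all tested genes called. Leaving out DMSO 1 and IPRN 3 gave 0 calls in each direction in both sets (12 and 26 at an unadjusted p under 0.05). It called 0.3% of all tested genes. The liver term gave 1 and 1, and 0 and 0 in the other lists, with 2.5% of all tested genes called. The GC offset gave 1 and 1, and 0 and 1, with 2.43% called. The cause of these differences between settings was not tested. The share of all genes called ranged from 0.3% to 15% over these settings. With 1 library left out it was 0.739% to 1.46%, except for 5.86% without IPRN 1.

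No called gene of the 41 changed direction, and in 59 of 105 values it lost its call. Among the 34 genes not called, 11 changed the sign of a log2 fold change, 30 times in all, with adjusted p of 0.477 or more. Over the fits with 1 library left out, Atg5 ranged from -0.098 to 0.017, Atg9a from -0.060 to 0.19, Gabarapl2 from -0.10 to 0.086, Gla from -0.14 to 0.15, Lgmn from -0.041 to 0.067, Map1lc3b from -0.15 to 0.11, Wipi2 from -0.029 to 0.040 and Atg12 from -0.031 to 0.015. With the GC offset the value was 0.062 for Atg12, 0.039 for Atg5, -0.041 for Atg9a, -0.0047 for Ctsd, -0.073 for Ctsz, 0.058 for Gabarapl2, -0.032 for Lgmn and -0.044 for Wipi2. Without DMSO 1 and IPRN 3, Becn1 was at -0.0014, Lgmn at -0.034 and Map1lc3b at 0.21. Gabarapl2 was at 1e-04 with DESeq2, 0.0041 without TMM, 0.0017 without a filter and 6e-04 at a mean of 50 counts.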
